A study of Equus caballus with 23 samples.

Results

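Non-protein-coding genes are those whose RNA is not read into a protein. In the annotation that the authors attached to their gene tables, 79 genes outside the mitochondrial genome carried a biotype other than protein-coding, of 9628 annotated identifiers and of 26991 genes in the count table. They comprised 51 pseudogenes, 16 microRNA hairpins, 9 processed pseudogenes, 2 small nucleolar RNAs (snoRNAs) and 1 ribosomal RNA (rRNA), and no small nuclear RNA was among them. The rule for members used this annotation alone, but it was set with earlier results of these data known. A further 20 non-protein-coding genes lay on the mitochondrial genome (18 transfer RNAs and 2 rRNAs) and were left out, and 17363 rows of the count table had no annotation and could not be assigned a biotype. The number of genes per biotype, and the lack of small nuclear RNA, therefore hold for the annotated genes only. Of the 79 genes, 3 carried a symbol (SNORA31, SNORD89 and 5_8S_rRNA), and the others are named below by their Ensembl identifier.

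The RNA came from needle biopsies of a hindquarter muscle, the gluteus medius, of Arabian horses trained for flat racing. The first time point, T0, comprised 5 libraries from untrained 2.5-year-old horses, of which 3 were male and 2 female. T1 comprised 8 libraries from 3-year-old horses that had completed the intense gallop phase, with 4 of each sex, and T2 comprised 10 libraries from 3-year-old horses when the racing season ended, with 7 males and 3 females. Repeated sampling of the same horse is not mentioned in the labels, so each p-value reflects the spread among these libraries, and age could not be told apart from training in comparisons with T0. Whole muscle tissue was sequenced, so fewer cells of a type and less RNA per cell cannot be told apart.

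Levels are given as CPM, counts per 1000000 counts with TMM-scaled library sizes. Library totals lay between 12185608 and 23641809 counts, and mitochondrially encoded genes took 36.0% to 55.0% of counts in T0, 44.7% to 56.7% in T1 and 42.5% to 52.3% in T2. All 9 skeletal muscle fibre markers were present, with a median summed level of 62100 CPM in T0, 104000 CPM in T1 and 70600 CPM in T2. Fibroblast markers (5 of 6 found) summed to medians of 205, 107 and 148 CPM, endothelial markers (3 of 3) to 160, 152 and 141 CPM, and adipocyte markers (2 of 4) to 92.6, 91.8 and 124 CPM at T0, T1 and T2. Macrophage markers (2 of 3) and the single lymphocyte marker found of 9 stayed below 10 CPM at every time point, and none of 4 erythroid markers was among the annotated symbols. The part of these differences in the results below was not tested. Libraries m3 (T1) and m12 (T0) had stood apart in earlier results of these data, and the results that changed without a library are given with their values.

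The biotypes differ in how their RNA is made and used. Ribosomal RNA forms the core of the ribosome, and in animals the 18S, 5.8S and 28S rRNAs are cut from 1 long precursor made by RNA polymerase I. SnoRNAs guide chemical changes in rRNA and in small nuclear RNA, and in mammals most are cut from introns of other genes. MicroRNA hairpins are short folded stretches of a longer transcript, from which the enzymes Drosha and Dicer release a mature microRNA that lowers the output of matching mRNAs. Pseudogenes are copies of genes that no longer encode a full protein, and processed pseudogenes arose when an mRNA was copied back into the genome. The library kit named in the labels, TruSeq RNA v2, selects polyadenylated RNA and does not mark the strand. Mature rRNA, snoRNA and mature microRNA have no long poly(A) tail, and a mature microRNA is shorter than the 50 sequenced cycles, so counts on these genes are not a direct measure of the mature RNAs.

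All 79 genes passed the filter on low counts, and their fewest counts in any library was 6. All 9529 genes annotated as protein-coding passed as well. Passing thus went with being annotated in the authors' tables and is not a result about the 79 genes. Together they took 0.186% to 0.858% of counts in T0 (median 0.251%), 0.169% to 1.19% in T1 (median 0.283%) and 0.156% to 0.935% in T2 (median 0.238%). The hairpins made up most of this share in the highest libraries, with 1.09% of counts in T1 library m1, 0.79% in T2 library m14 and 0.694% in T0 library m13, but 0.0201% in T1 library m4. Pseudogenes took between 0.0418% and 0.123% and processed pseudogenes between 0.0252% and 0.0423% of counts in every library. The rRNA gene took at most 0.0112% of counts and the 2 snoRNAs together at most 0.000354%. Per kilobase of annotated span, the mean level had a median of 758 CPM per kb over the hairpins, 14.3 CPM per kb over the processed pseudogenes, 9.30 CPM per kb over the snoRNAs and 4.85 CPM per kb over the pseudogenes, and it was 210 CPM per kb for the rRNA gene.

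Several members could not be measured separately. Only 71 distinct count profiles existed among the 79 genes, because 3 sets of hairpins held identical counts in all 23 libraries. The first set had 6 members (ENSECAG00000027052, ENSECAG00000027057, ENSECAG00000027228, ENSECAG00000027237, ENSECAG00000027350 and ENSECAG00000027500), the second had 3 (ENSECAG00000027096, ENSECAG00000027324 and ENSECAG00000027394) and the third had 2 (ENSECAG00000027109 and ENSECAG00000027111). Genes with identical counts are copies for the purpose of counting and count as 1 measurement. Pseudogenes resemble the genes they were copied from, and the authors' tables do not name those genes, so the division of short reads between a pseudogene and its source is uncertain for every member of these biotypes. Of the 79 members, 5 lay inside an annotated protein-coding gene, and without strand their reads cannot be told apart from those of that gene.

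In each of the 3 comparisons, non-protein-coding genes were called at a lower share than the whole table. In T1 against T0, 3 of the 79 genes passed (2 higher and 1 lower, 3.80%), beside 6.91% of all 11545 genes tested (3.57% higher and 3.34% lower). In T2 against T1, 14 passed (7 higher and 7 lower, 17.7%), beside 27.6% of all genes (12.6% higher and 15.1% lower). In T2 against T0, 6 passed (4 higher and 2 lower, 7.59%), beside 16% of all genes (6.73% higher and 9.30% lower). The genes annotated as protein-coding were called at 6.97%, 29.5% and 16.6% in the same order of comparisons. The difference in share between the biotypes was not tested. The median log2 fold change of the 79 genes was 0.02, -0.20 and -0.09, against -0.02, -0.01 and -0.03 over all genes tested. Hairpins with identical counts, none of which was called, entered these shares and medians once per gene and not once per profile. This lowers the called shares of the 79 genes, and its effect on the medians was not tested.

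The split by direction depended on how the libraries were scaled. Scaling by total counts, without the TMM factors that correct for the composition of each library, moved the median log2 fold change of all genes to -0.42 in T1 against T0, to 0.13 in T2 against T1 and to -0.29 in T2 against T0. With that scaling, the calls became 0 higher and 18 lower in T1 against T0, 8 higher and 1 lower in T2 against T1, and 1 higher and 4 lower in T2 against T0. Directions below are those under TMM scaling. The number of calls in T1 against T0 was itself unstable, since it was 0 without library m1, m2 or m10, 1 without m6, m7, m8 or m9, and 0 after thinning all libraries to the smallest total.

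**Figure D1:**
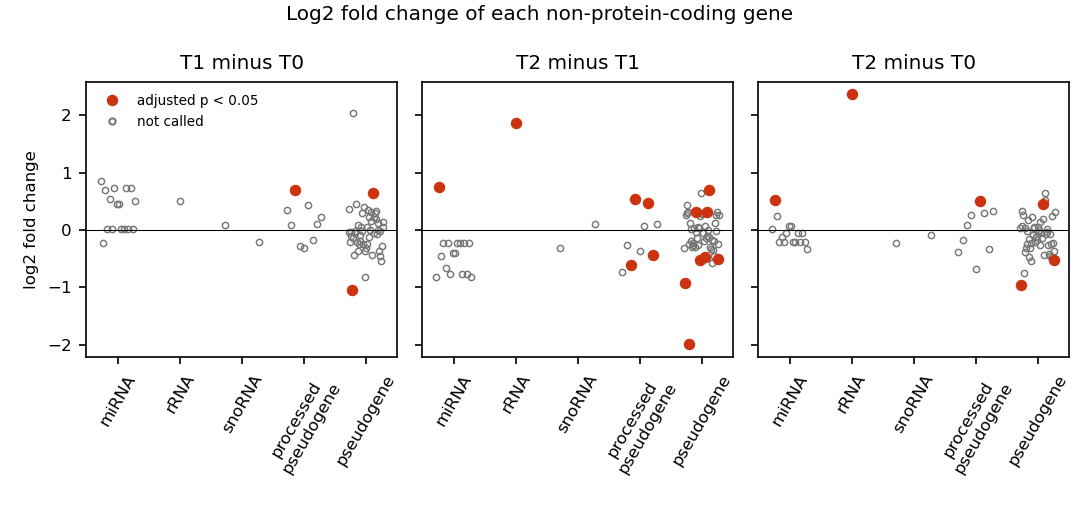
Log2 fold change (vertical axis) of each of the 79 non-protein-coding genes, by biotype, in T1 minus T0, T2 minus T1 and T2 minus T0. Filled red points passed an adjusted p of 0.05, and they numbered 3, 14 and 6; the rRNA gene is the highest point in both comparisons of T2.

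The microRNA hairpins were the most abundant biotype per kilobase, and only 1 of the 16 was called in any comparison. Most of them varied widely between libraries. Of the 16 hairpins, 13 lay on 6 scaffolds that the assembly does not place on a chromosome, and 5 of these stood within 2787 bp of each other on scaffold Un0288 (48567 to 51353). Those 13 and ENSECAG00000027096 on chromosome 1 (89071095 to 89071182, 88 bp) formed a group of 14 with 6 distinct profiles, whose levels moved together. Of the group, 2 hairpins share scaffold Un0592 with the 5.8S rRNA gene, and whether reads counted on these hairpins came from ribosomal RNA was not tested, so their levels are counts on the annotated spans and not measures of microRNA. The highest level over the libraries was 62.4 to 75.3 times the lowest in every one of the 14, against a median of 2.82 over the 11154 tested genes with a count in every library. Only 82 of those genes had a range at or above the lowest of the group, and the hairpins themselves are counted among the 82.

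ENSECAG00000027109 (scaffold Un0592, 22574 to 22684, 111 bp), whose counts are those of ENSECAG00000027111 (Un0288, 51243 to 51353) as well, had the highest mean level of the biotype. In T0 it had 62.7, 126.0, 306.3, 496.6 and 1260.0 CPM in libraries m8, m9, m10, m12 and m13. In T1 it ranged from 35.0 CPM in m4 to 2493 CPM in m1, with a median of 320.7 CPM, and in T2 from 64.0 CPM in m15 to 1625 CPM in m14, with a median of 237.0 CPM. Each time point thus held libraries with low and with high levels, and the 3 ranges overlapped almost completely. The log2 fold change was 0.46 ± 0.91 in T1 against T0 (SE, adjusted p = 0.829), -0.40 ± 0.74 in T2 against T1 (adjusted p = 0.724) and 0.06 ± 0.86 in T2 against T0 (adjusted p = 0.972). Library m1 decided the sign of the first 2 values, which became -0.36 and 0.42 without it, and with sex as a covariate the first became -0.05.

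The other profiles of the group ranked the libraries in nearly the same way. Libraries m1, m13, m14, m19 and m22 were among the 6 highest for all 6 profiles, and m3 for 5 of them. The ratio of ENSECAG00000027056 (Un0288, 49298 to 49383) to ENSECAG00000027109 stayed between 0.659 and 1.01 counts per count over the 23 libraries, a 1.54-fold range, although both levels varied at least 62.4-fold. For the remaining profiles the range of this ratio was 1.73-fold for ENSECAG00000027096, 2.09-fold for ENSECAG00000027524, 2.19-fold for ENSECAG00000025328 and 4.4-fold for ENSECAG00000027052. No hairpin of the group was called in any comparison, and the lowest adjusted p among all 16 hairpins in T1 against T0 was 0.315.

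The protein-coding gene that overlaps a hairpin of the group had similar swings, and no other protein-coding gene was set against the group. ENSECAG00000014226, which has no symbol in the authors' tables, spans chromosome 1 from 89070641 to 89071294 and contains the hairpin ENSECAG00000027096. Its level ranged from 150 CPM in T1 library m4 to 10410 CPM in T1 library m1, and its ratio to ENSECAG00000027109 varied 1.66-fold. Reads of this gene and of the hairpin inside it cannot be told apart.

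**Figure D2:**
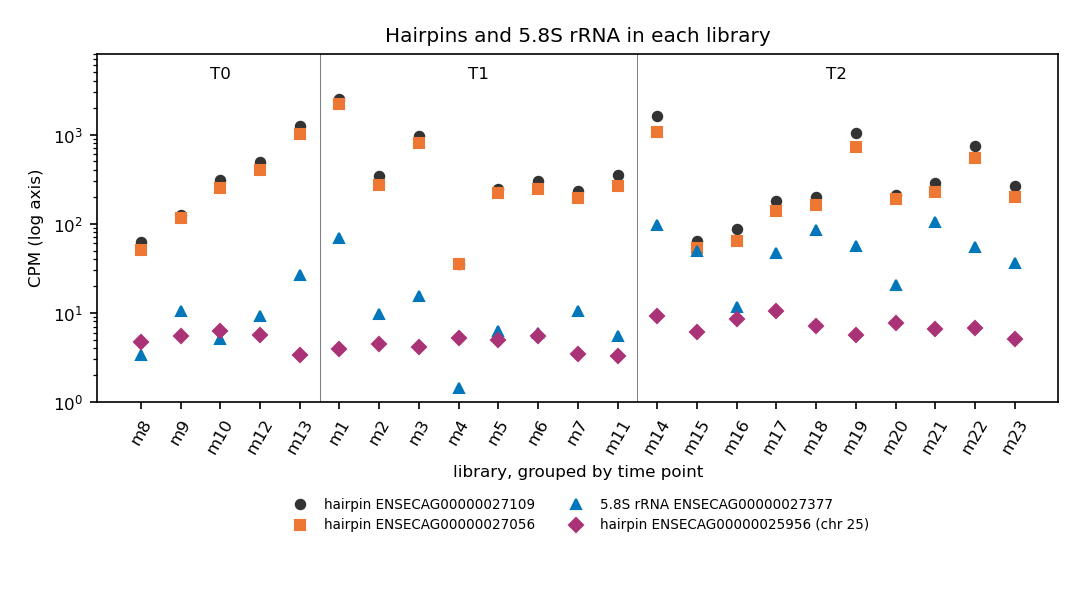
Levels (CPM, log axis) of 3 hairpins and the 5.8S rRNA gene in each of the 23 libraries, grouped by time point. The hairpins ENSECAG00000027109 and ENSECAG00000027056 follow each other from library to library, with ENSECAG00000027109 between 35.0 and 2493 CPM, whereas ENSECAG00000025956 on chromosome 25 stays between 3.28 and 10.6 CPM.

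The remaining hairpins stood outside the group. ENSECAG00000025956 (chromosome 25, 38788674 to 38788783, 110 bp) was the only called hairpin. It had 4.75, 5.56, 6.31, 5.62 and 3.37 CPM in T0 libraries m8, m9, m10, m12 and m13, a range of 3.28 to 5.53 CPM in T1 (median 4.27) and of 5.06 to 10.6 CPM in T2 (median 6.94). Of the 10 T2 libraries, 9 lay above the highest T1 library and 7 above the highest T0 library. It rose in T2 against T1 by 0.74 log2 units (SE 0.15, adjusted p = 0.000752) and kept this call under every alternative run. Against T0 the log2 fold change was 0.52 ± 0.17 (adjusted p = 0.0405). That call ended without any 1 of 8 libraries (m8, m9, m13, m14, m16, m17, m18 and m22, adjusted p between 0.0501 and 0.134), with total count scaling (0.469), when the third time point was left out of the fit (0.0554) and after thinning (0.0862). The last hairpin, ENSECAG00000026012 (chromosome 8, 39915594 to 39915680), lay within MIB1, a ubiquitin ligase gene of the Notch pathway. It averaged 1.56 CPM and was called in no comparison, and neither was MIB1.

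The 5.8S rRNA gene had the largest rise among the called members in both comparisons of T2. The gene, ENSECAG00000027377, spans 153 bp of scaffold Un0592 (25568 to 25720). The hairpins ENSECAG00000027237 and ENSECAG00000027109 lay 2442 and 2883 bp from it on that scaffold. In T0 it had 3.36, 10.5, 5.05, 9.12 and 26.5 CPM in libraries m8, m9, m10, m12 and m13. In T1 it ranged from 1.44 CPM in m4 to 69.2 CPM in m1 (median 7.95), and in T2 from 11.7 CPM in m16 to 105.4 CPM in m21 (median 52.0). All T2 libraries but m16 exceeded 20 CPM, whereas only m1 did so in T1 and only m13 in T0, and the ranges overlapped.

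The gene rose in T2 against T1 by 1.86 log2 units (SE 0.61, adjusted p = 0.0287) and in T2 against T0 by 2.37 ± 0.76 (adjusted p = 0.0399). In T1 against T0 the log2 fold change was 0.50 ± 0.73 (adjusted p = 0.756). Both calls were close to the threshold. The call against T1 ended without library m2, m5, m6, m7 or m11 (adjusted p between 0.053 and 0.0543). The call against T0 ended without any 1 of 9 libraries (m8, m9, m10, m12, m14, m17, m18, m21 and m22, adjusted p between 0.0534 and 0.0923), without m3 and m12 (0.0587), without the filter on low counts (0.0604) and with sex as a covariate (0.0518). The log2 fold change stayed between 1.68 and 2.86 against T1, and between 2.15 and 3.02 against T0, when single libraries were left out.

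Part of the spread of the 5.8S gene ran with the hairpins, as in m1, m13 and m14, which were high for both. Its counts were therefore also set against those of ENSECAG00000027109 in the same library, as a description without a test. The ratio was 0.0535, 0.0833, 0.0165, 0.0184 and 0.0211 in T0 libraries m8, m9, m10, m12 and m13. It lay between 0.0156 and 0.0449 in T1 (median 0.0266) and between 0.0544 and 0.772 in T2 (median 0.135). Every T2 library lay above every T1 library, while T0 library m9 lay above the lowest T2 libraries. The ratio thus varied 49.4-fold from m11 to m15, far more than the ratios between hairpins.

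**Figure D3:**
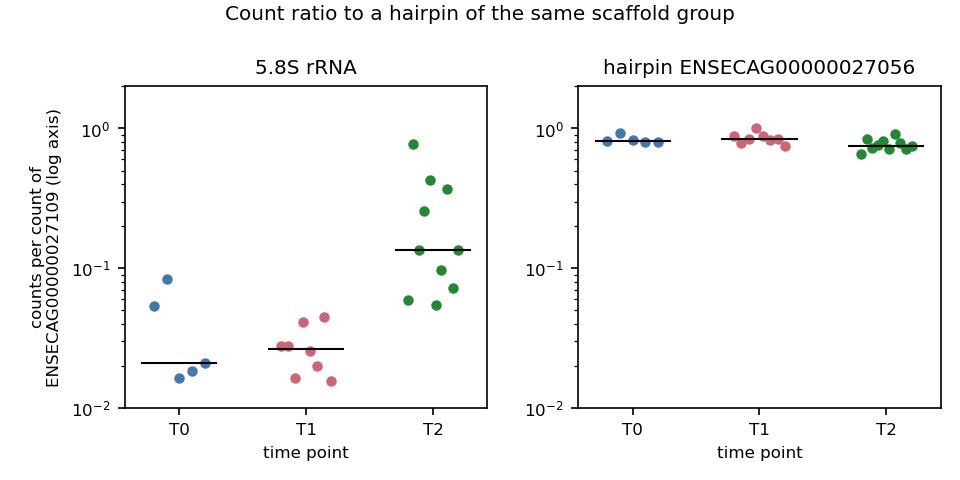
Counts of the 5.8S rRNA gene (left) and of the hairpin ENSECAG00000027056 (right) per count of the hairpin ENSECAG00000027109 in the same library, on a log axis, by time point. Points are libraries and lines are medians; the 5.8S ratio has medians of 0.0211, 0.0266 and 0.135 at T0, T1 and T2, while the ratio between hairpins stays between 0.659 and 1.01.

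Both snoRNA genes were near the lowest levels of all members and were called in no comparison. SNORA31 (ENSECAG00000025737, chromosome 17, 25233393 to 25233526) belongs to the box H/ACA class, which guides the conversion of uridine to pseudouridine. It had 1.07, 1.43, 1.63, 1.27 and 1.46 CPM in T0 libraries m8, m9, m10, m12 and m13, a range of 0.348 to 2.34 CPM in T1 (median 1.51) and of 0.738 to 1.84 CPM in T2 (median 1.19). SNORD89 (ENSECAG00000025987, chromosome 15, 8262079 to 8262192) belongs to the box C/D class, which guides the methylation of ribose. It had 0.901, 0.997, 0.947, 1.59 and 1.07 CPM in the same T0 libraries, a range of 0.694 to 1.14 CPM in T1 (median 0.999) and of 0.507 to 1.57 CPM in T2 (median 0.948).

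The 3 time points overlapped for both snoRNAs. Each library held 7 to 38 counts of SNORA31 and 8 to 30 counts of SNORD89. The log2 fold changes of SNORA31 were 0.08 ± 0.28, -0.31 ± 0.24 and -0.23 ± 0.27 in T1 against T0, T2 against T1 and T2 against T0 (SE, lowest adjusted p = 0.336). Those of SNORD89 were -0.20 ± 0.24, 0.11 ± 0.21 and -0.10 ± 0.24 (SE, lowest adjusted p = 0.7). The nearest annotated protein-coding genes were TPT1, which encodes the translationally controlled tumour protein, 958 bp from SNORA31, and RNF149, a ubiquitin ligase gene, 2238 bp from SNORD89. TPT1 averaged 4321 ± 915 CPM in T2, against 3290 ± 1114 CPM in T1 (SD, n = 10 and 8), and did not pass (adjusted p = 0.128). Neighbouring genes were looked up after the members' values had been seen.

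Processed pseudogenes gave 4 of the 14 calls in T2 against T1, with 2 higher and 2 lower among 9 genes. This was 44.4%, beside 27.6% of all genes, and the difference was not tested on so few genes. The clearest of these calls was that of ENSECAG00000005729 (chromosome 23, 38456236 to 38457492, 1257 bp). It had 60.9, 62.7, 70.3, 63.7 and 75.5 CPM in T0 libraries m8, m9, m10, m12 and m13, a range of 45.4 to 65.6 CPM in T1 (median 59.9) and of 68.2 to 103 CPM in T2 (median 78.2). All 10 T2 libraries lay above all 8 T1 libraries, and 9 of them above every T0 library. It rose in T2 against T1 by 0.47 log2 units (SE 0.09, adjusted p = 0.000441), and this call held under every alternative run. Against T0 it did not pass, with a log2 fold change of 0.29 ± 0.10 (adjusted p = 0.0543). Groups without overlap were found for 2 of the 79 members in T2 against T1, and for 258 of the 11545 genes tested.

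ENSECAG00000002481 (chromosome 12, 6868710 to 6870002, 1293 bp) also rose in T2 against T1. It averaged 21.7 ± 4.63 CPM in T2 and 14.8 ± 3.13 CPM in T1 (SD, n = 10 and 8), and the log2 fold change, 0.54 ± 0.13 (adjusted p = 0.00399, with its SE), stayed called under every alternative run. All 10 T2 libraries lay above the T1 median, and 3 lay above the highest T1 library. Its T0 median of 17.7 CPM lay between those of T1 (14.5 CPM) and T2 (20.1 CPM). The T0 libraries overlapped both, with 17.7, 22.2, 19.9, 16.4 and 13.95 CPM in m8, m9, m10, m12 and m13.

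ENSECAG00000002313 (chromosome 2, 109880356 to 109881468, 1113 bp) peaked at T1. It had 3.32, 3.56, 3.10, 4.03 and 2.47 CPM in T0 libraries m8, m9, m10, m12 and m13, a range of 3.80 to 7.25 CPM in T1 (median 5.32) and of 2.27 to 5.31 CPM in T2 (median 3.04). Of the 8 T1 libraries, 7 lay above the highest T0 library, and 6 of the 10 T2 libraries lay below the lowest T1 library. It rose in T1 against T0 by 0.70 ± 0.20 (SE, adjusted p = 0.0351) and fell by 0.62 in log2 units in T2 against T1 (SE 0.16, adjusted p = 0.00654), so that T2 and T0 differed by 0.08 ± 0.19 (adjusted p = 0.806). The rise ended without library m1, m2, m8, m9, m10, m11 or m13 (adjusted p between 0.0513 and 0.0934), with total count scaling (0.293) and after thinning (0.0727). The fall stayed called without any single library, and it ended with total count scaling (0.0533).

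ENSECAG00000003783 (chromosome 17, 60137130 to 60137822, 693 bp) was lowest in the untrained horses. It had 14.01, 16.7, 18.9, 17.3 and 15.8 CPM in T0 libraries m8, m9, m10, m12 and m13, a range of 17.1 to 29.8 CPM in T1 (median 21.7) and of 16.6 to 30.8 CPM in T2 (median 22.6). Of the T2 libraries 9 of 10, and of the T1 libraries 7 of 8, lay above the highest T0 library. The rise in T2 against T0 was 0.51 ± 0.14 (SE, adjusted p = 0.0173), held without any single library and ended with total count scaling (0.293). In T1 against T0 the value of 0.44 ± 0.14 did not pass (adjusted p = 0.0614).

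The fourth processed pseudogene called in T2 against T1 was ENSECAG00000005817 (chromosome 23, 40217650 to 40219503). It averaged 4.25 ± 1.11 CPM in T2 and 5.79 ± 0.85 CPM in T1 (SD, n = 10 and 8) and fell by 0.43 in log2 units (SE 0.15, adjusted p = 0.0323). This call ended without library m1, m4, m11, m16, m17 or m22 (adjusted p between 0.0537 and 0.077), with total count scaling (0.422), without the filter on low counts (0.053) and after thinning (0.0884). The most abundant processed pseudogene, ENSECAG00000006065 (chromosome 7, 61630713 to 61631039), averaged 177 ± 66.6 CPM in T0, 207 ± 75.5 CPM in T1 and 222 ± 57.9 CPM in T2 (SD, n = 5, 8 and 10) and was called in no comparison.

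Of the 51 pseudogenes, 8 were called in T2 against T1 (3 higher and 5 lower). In T2 against T0, 3 were called (1 higher and 2 lower), and in T1 against T0, 2 (1 higher and 1 lower). These shares of 15.7%, 5.88% and 3.92% lay below the 27.6%, 16% and 6.91% of all genes, a difference that was not tested. Most pseudogenes were weakly expressed, since 43 of the 51 had a mean below 10 CPM. The largest fall with stable calls was that of ENSECAG00000000629 (chromosome 21, 53310367 to 53311301, 935 bp). It had 2.09, 2.23, 1.84, 2.01 and 2.36 CPM in T0 libraries m8, m9, m10, m12 and m13, a range of 1.31 to 2.40 CPM in T1 (median 2.08) and of 0.481 to 1.86 CPM in T2 (median 1.09). Of the 10 T2 libraries, 7 lay below the lowest T1 library, m3, and 9 below the lowest T0 library.

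ENSECAG00000000629 fell by 0.92 in T2 against T1 (SE 0.19, adjusted p = 0.000913) and fell by 0.96 in T2 against T0 (SE 0.21, adjusted p = 0.00604), both on the log2 scale. Both calls held under every alternative run, although the gene had only 6 to 51 counts per library. ICE1, which encodes a scaffold protein of the complex that transcribes small nuclear RNA genes, ends 1075 bp from it. ICE1 averaged 9.85 ± 1.12 CPM in T0, 9.04 ± 1.20 CPM in T1 and 9.13 ± 1.37 CPM in T2 (SD, n = 5, 8 and 10), and its log2 fold changes of 0.02 ± 0.10 in T2 against T1 and -0.11 ± 0.12 in T2 against T0 did not pass (SE, adjusted p = 0.932 and 0.549).

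ENSECAG00000017685 (chromosome 4, 15561469 to 15562222, 754 bp) separated T2 from T1 completely. It had 3.69, 3.75, 4.63, 3.92 and 5.57 CPM in T0 libraries m8, m9, m10, m12 and m13, a range of 4.74 to 7.02 CPM in T1 (median 5.47) and of 2.93 to 4.49 CPM in T2 (median 4.03). It fell by 0.53 in T2 against T1 (SE 0.11, adjusted p = 0.00107), a call that held without any single library and ended with total count scaling (adjusted p = 0.0595). T0 overlapped both other time points.

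A further pair of pseudogenes fell in T2 against T1. ENSECAG00000025083 (chromosome 7, 2945733 to 2947615) was among the most abundant pseudogenes, with 147 ± 24.9 CPM in T2 and 208 ± 44.4 CPM in T1 (SD, n = 10 and 8), and it fell by 0.51 in log2 units (SE 0.15, adjusted p = 0.0148). In T0 it had between 135.8 and 168.8 CPM in 4 libraries and 312.5 CPM in m13. ENSECAG00000018848 (chromosome X, 43778836 to 43780654) averaged 3.60 ± 0.75 CPM in T2 and 5.02 ± 1.15 CPM in T1 and fell by 0.48 (SE 0.14, adjusted p = 0.015). Both calls held without any single library and ended with total count scaling (adjusted p = 0.117 and 0.282).

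The pseudogenes that rose in T2 against T1 were ENSECAG00000020565, ENSECAG00000015658 and ENSECAG00000021284. ENSECAG00000020565 (chromosome 29, 29327440 to 29327984, 545 bp) had 9.21, 8.88, 8.84, 9.33 and 8.04 CPM in T0 libraries m8, m9, m10, m12 and m13, a range of 8.35 to 13.6 CPM in T1 (median 9.61) and of 9.59 to 15.6 CPM in T2 (median 12.2). All 10 T2 libraries lay above all 5 T0 libraries, which occurred for 1 of the 79 members and in 308 genes of the whole table counting both directions. It rose by 0.46 ± 0.12 in T2 against T0 (SE, adjusted p = 0.0165) and by 0.31 ± 0.11 in T2 against T1 (adjusted p = 0.0331). The first call ended without library m13 (0.0506) and with total count scaling (0.372). The second ended without any 1 of 8 libraries (m2, m5, m6, m7, m14, m16, m17 and m18, adjusted p between 0.0526 and 0.0707), without the filter on low counts (0.0554) and after thinning (0.0676).

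ENSECAG00000015658 (chromosome 2, 7270177 to 7270894) lay inside TXNDC12, which encodes a thioredoxin-like protein of the endoplasmic reticulum. The pseudogene averaged 7.72 ± 1.19 CPM in T2 and 6.20 ± 0.84 CPM in T1 (SD, n = 10 and 8) and rose by 0.31 ± 0.11 (SE, adjusted p = 0.0299). TXNDC12 had a similar value of 0.28 ± 0.12 that did not pass (adjusted p = 0.071), and reads of the overlapping genes cannot be told apart. The call of the pseudogene ended without library m1, m6, m7, m17 or m21 (adjusted p between 0.0524 and 0.0621), without the filter on low counts (0.0589) and after thinning (0.391). ENSECAG00000021284 (chromosome 9, 66061353 to 66062157) averaged 16.7 ± 8.32 CPM in T2 and 10.4 ± 2.35 CPM in T1 and rose by 0.69 ± 0.24 (SE, adjusted p = 0.0314). Of its 10 T2 libraries, 5 lay above the highest T1 library, and the call ended without library m1, m3, m5, m6, m14 or m21 (adjusted p between 0.05 and 0.0666), without m3 and m12 (0.0552) and without the filter on low counts (0.0643).

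One call in T2 against T1 rested on a single library. ENSECAG00000008166 (chromosome X, 48844363 to 48845361) fell outside the rule for named genes and was singled out after its values were seen. Its T2 libraries ranged from 2.00 to 6.58 CPM (median 3.79), whereas T1 library m3 had 92.2 CPM and the other 7 T1 libraries lay between 0.568 and 13.1 CPM, with a T1 median of 2.67 CPM. The log2 fold change, -2.0 ± 0.72 (with its SE, adjusted p = 0.0453), became -0.19 without m3 (adjusted p = 0.76) and -0.13 with DESeq2 (adjusted p = 0.83). The call ended in 16 of the 23 fits that left out 1 library, which were those without m3, m4, m8, m9, m10, m13 and each of m14 to m23.

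The pseudogenes called in T1 against T0 alone were ENSECAG00000020981 and ENSECAG00000004860. ENSECAG00000020981 (chromosome 14, 42745898 to 42746024, 127 bp) had 20.9, 12.1, 15.9, 20.4 and 17.6 CPM in T0 libraries m8, m9, m10, m12 and m13, a range of 18.8 to 46.3 CPM in T1 (median 23.2) and of 17.03 to 36.7 CPM in T2 (median 23.3). Of the 8 T1 libraries, 7 lay above the highest T0 library, and it rose by 0.65 ± 0.20 (SE, adjusted p = 0.0484). ENSECAG00000004860 (chromosome 6, 42266731 to 42267121, 391 bp) averaged 0.709 ± 0.283 CPM in T1 and 1.49 ± 0.77 CPM in T0 (SD, n = 8 and 5) and fell by 1.05 in log2 units (SE 0.30, adjusted p = 0.0354).

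Neither call was stable. That of ENSECAG00000020981 ended without any 1 of 16 libraries (m1, m2, m3, m6, m7, m9, m10, m13, m14, m16, m17, m18, m19, m20, m21 and m23, adjusted p between 0.0502 and 0.133), with total count scaling (0.293), without m3 and m12 (0.0672), when the third time point was left out of the fit (0.0834) and after thinning (0.0551). That of ENSECAG00000004860 ended without any 1 of 8 libraries (m1, m2, m5, m6, m7, m8, m10 and m12, adjusted p between 0.0505 and 0.0981), without the filter on low counts (0.0505), without m3 and m12 (0.0567), when the third time point was left out of the fit (0.0864) and after thinning (0.0664). In T2 against T0, ENSECAG00000024884 (chromosome 9, 83238891 to 83240407) averaged 3.27 ± 0.75 CPM in T2 and 4.75 ± 0.69 CPM in T0 (SD, n = 10 and 5). It fell by 0.53 (SE 0.15, adjusted p = 0.0203), with 9 of 10 T2 libraries below the lowest T0 library, and the call ended without library m13 (adjusted p = 0.0591).

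**Figure D4:**
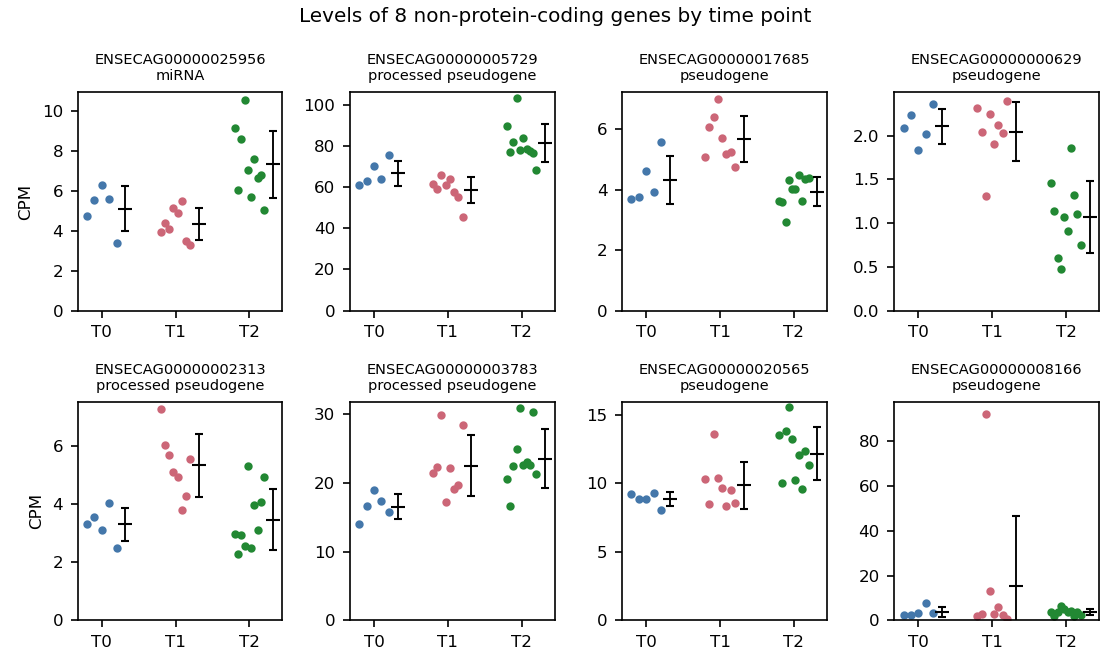
Levels (CPM) of 8 non-protein-coding genes called in at least 1 comparison, by time point. Points are libraries, and the bar beside them is the mean with its SD (n = 5, 8 and 10 at T0, T1 and T2). ENSECAG00000005729 and ENSECAG00000017685 show no overlap between T2 and T1, and ENSECAG00000008166 has 1 T1 library at 92.2 CPM.

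The most abundant pseudogene was called in no comparison and varied 12.3-fold between libraries. ENSECAG00000016730 (chromosome 27, 37371073 to 37371370, 298 bp) had 400.5, 358.7, 366.3, 459.4 and 537.6 CPM in T0 libraries m8, m9, m10, m12 and m13. It ranged from 123.2 CPM in m3 to 761 CPM in m2 in T1 (median 583.3) and from 61.6 CPM in m19 to 635.8 CPM in m18 in T2 (median 488.9). The log2 fold changes of 0.30 ± 0.39, -0.26 ± 0.32 and 0.04 ± 0.37 in T1 against T0, T2 against T1 and T2 against T0 did not pass (SE, lowest adjusted p = 0.574).

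The protein-coding genes that make, carry or degrade these classes of RNA were read from the same fit. Of 116 such genes tested in 10 lists, none was called in T1 against T0 by edgeR, where 9 had an unadjusted p under 0.05 and DESeq2 called 2. In T2 against T1, 30 rose and 12 fell (36.2%, beside 27.6% of all genes and 29.5% of those annotated as protein-coding). In T2 against T0, 24 rose and 5 fell (25%, beside 16% and 16.6%). Leaving out single libraries gave 27 to 41 rises and 8 to 13 falls against T1. Against T0 it gave 12 rises without m13, 36 without m3, 2 falls without m9 and 7 without m3. With total count scaling the counts were 0 higher and 37 lower in T1 against T0, 44 and 2 in T2 against T1, and 3 and 11 in T2 against T0.

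Of all genes tested, 12.6% rose and 15.1% fell in T2 against T1. The lists below are to be read beside those shares, without a test of the difference between lists. Of the proteins of the spliceosomal particles, 12 of 26 rose and 0 fell. Their median log2 fold change was 0.33, against -0.01 over all genes. SNRPG, a protein of the Sm ring on spliceosomal RNAs, averaged 43.4 ± 9.17 CPM in T2 and 25.4 ± 4.52 CPM in T1 (SD, n = 10 and 8) and rose by 0.77 ± 0.13 (SE, adjusted p = 0.000142). LSM5, of the related Lsm ring, rose by 0.88 ± 0.15 (adjusted p = 0.000227). SNRPG and LSM5 were both highest in m12 within T0, in m3 within T1 and in m17 within T2. In T2 against T0, 9 of 26 rose, which became 5 without m9, 15 without m3, and 2 higher and 1 lower with total count scaling. Among 12 genes that assemble and transport these particles, 5 rose and 2 fell in T2 against T1, and 7 rose and 0 fell with total count scaling. GEMIN6, of the complex that loads the Sm ring, rose by 0.85 ± 0.17 (adjusted p = 0.00095).

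Of the snoRNA proteins, 1 of 5 of the box C/D class and 2 of 6 of the box H/ACA class rose in T2 against T1, and 0 fell. The box C/D count was 3 without library m3, 2 without m19 and 3 with total count scaling. NOP58, a core protein of box C/D particles, rose by 0.32 ± 0.09 (SE, adjusted p = 0.0128), and NOP10, a core protein of box H/ACA particles, rose by 0.50 ± 0.13 (adjusted p = 0.00602). Of 8 proteins of RNase P and RNase MRP, which cut precursors of transfer RNA and rRNA, 3 rose and 0 fell. RPP38 averaged 6.44 ± 1.13 CPM in T2 and 4.68 ± 0.49 CPM in T1 and rose by 0.46 ± 0.11 (adjusted p = 0.00253). Of 5 proteins of the signal recognition particle, which brings ribosomes to the endoplasmic reticulum, 2 rose. Of 6 genes of the 7SK particle and its partner kinase 1 rose, a share near that of all genes: CDK9, the kinase, rose by 0.41 ± 0.13 (adjusted p = 0.0185).

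The lists nearest to the hairpins and to rRNA held both directions under TMM scaling, and with total count scaling the falls numbered 0 for microRNA processing, 1 for RNA polymerase I and III and 1 for RNA decay. Of 9 microRNA processing genes in T2 against T1, PRKRA, a partner of Dicer, rose by 0.88 ± 0.18 (SE, adjusted p = 0.00106), while DICER1 fell by 0.43 (SE 0.11, adjusted p = 0.00575) and AGO4, an Argonaute protein, fell by 0.68 (SE 0.15, adjusted p = 0.0019). AGO1 also fell. Of 21 genes of RNA polymerase I and III, which transcribe rRNA and other small RNAs, 1 rose and 3 fell. The share of falls in this list was near the 15.1% of all genes. BDP1, a subunit of the polymerase III initiation factor TFIIIB, averaged 8.29 ± 2.48 CPM in T2 and 18.2 ± 4.13 CPM in T1 (SD, n = 10 and 8) and fell by 1.13 (SE 0.17, adjusted p = 3.91e-05). POLR1A, the largest subunit of polymerase I, fell by 0.48 (SE 0.11, adjusted p = 0.00274). Within T0, T1 and T2, BDP1 was lowest in m12, m3 and m17, the libraries that were highest for SNRPG and LSM5. POLR1A was lowest in m8, m1 and m18. Libraries m12, m3 and m17 also had the lowest TMM factors of T0, T1 and T2 (0.7489, 0.6604 and 0.8025). The part of scaling in this pattern was not tested, nor was what else sets these libraries apart. Of 18 genes of RNA decay and surveillance, 2 rose, a share near the 12.6% of all genes, and 4 fell. The falls numbered 2 without library m2, m5, m7, m11, m16, m17, m18 or m21. EXOSC3, of the RNA exosome, rose by 0.66 ± 0.12 (adjusted p = 0.000452), and XRN1, the main cytoplasmic 5′ to 3′ exonuclease, fell by 0.94 (SE 0.20, adjusted p = 0.00122).

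**Figure D5:**
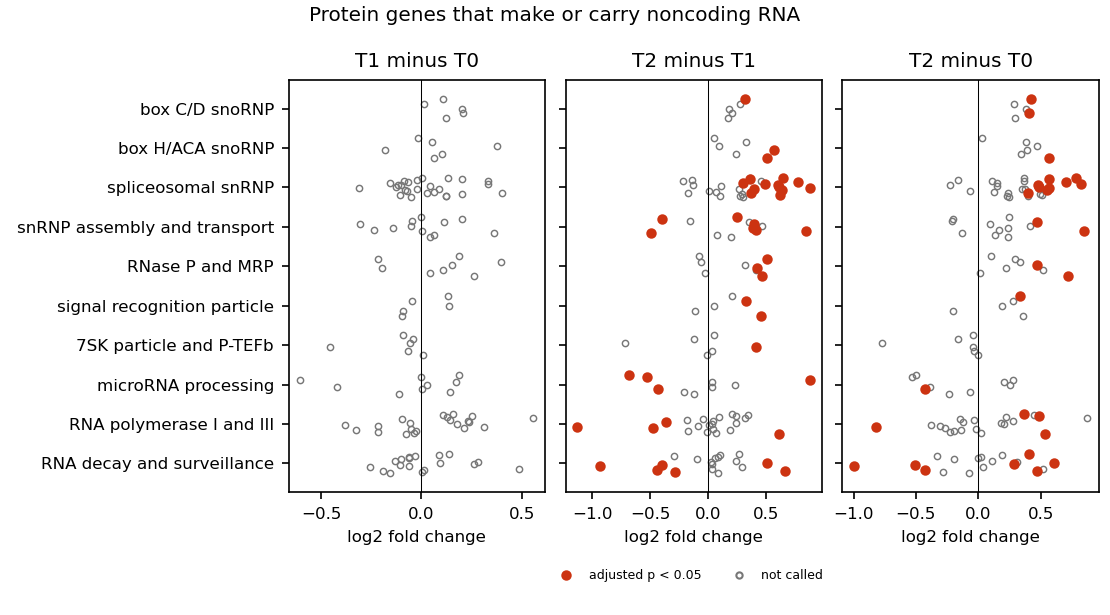
Log2 fold change (horizontal axis) of 116 protein-coding genes in 10 lists that make, carry or degrade noncoding RNA, in T1 minus T0, T2 minus T1 and T2 minus T0. Filled red points passed an adjusted p of 0.05; none did in T1 minus T0, 42 did in T2 minus T1 and 29 did in T2 minus T0.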

How the data were processed

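RNA from 23 gluteus medius biopsies was sequenced for 50 single-end cycles in 6 technical repetitions, per the labels' protocols. Neither the pooling of these repetitions nor the genome build is stated by the sources used here. FastQC, STAR, RSEM and DESeq2 are listed, with no version, per the submitters' processing notes. The authors deposited expected counts per gene, which are whole numbers in 100% of values, and these were taken as counts. Their comparison tables, in which the authors also deposited a mean normalized signal, log2 fold changes, a test score and p-values, were used for annotation only (biotype, symbol and coordinates).

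Genes were kept by edgeR's filterByExpr (minimum count 10, minimum total 15), which left 11545 genes with 99.93% of counts. After TMM scaling, a single edgeR 4.0.16 model covered all 3 time points (two-sided quasi-likelihood F test, robust option, R 4.3.3), with Benjamini-Hochberg adjustment over all genes tested and a threshold of 0.05. The SE of a log2 fold change is its size divided by the square root of F. CPM used TMM-scaled library sizes. The text names members called in any comparison (in a comparison with more than 12 calls, the 12 with the smallest p), the 3 most abundant members of each biotype, members with a known RNA's name, and up to 2 called genes per protein list and comparison. The members, lists and tests were chosen with earlier results of these data known. Alternatives were median ratio scaling, total count scaling, no filter, a looser filter (3 counts in 5 libraries), DESeq2 1.42.0, sex as a covariate, only the 2 time points compared, thinning to 12185608 counts, leaving out libraries m3 and m12, and leaving out each library in turn. The fit was tested on simulated data. Figures used matplotlib 3.10.9.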

Additional observations from a re-analysis of the deposited data

Results flagged for a closer look

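In 12 of 75 groups tested over 25 named genes, the highest or lowest library stood apart from the rest of its time point. The flag used the gap in CPM to the next library, divided by the range of the time point. Chance would flag about 1 in 20 groups if CPM values were normally distributed, which was not tested. The genes with shared counts are also not independent. ENSECAG00000008166 was added to the 25 after its values were seen, so the total cannot be set against that rate. T1 library m1 was high for the hairpins, with 2493 CPM of ENSECAG00000027109 and of its copy ENSECAG00000027111 and 2214 CPM of ENSECAG00000027056, and for the 5.8S rRNA gene ENSECAG00000027377, with 69.2 CPM. T1 library m3 was low for ENSECAG00000000629 (1.31 CPM) and high for ENSECAG00000020565 (13.6 CPM), ENSECAG00000006065 (379.5 CPM) and ENSECAG00000008166 (92.2 CPM). T0 library m12 was high for ENSECAG00000015658 (8.16 CPM), for SNORD89 (ENSECAG00000025987, 1.59 CPM) and for ENSECAG00000008166 (7.84 CPM). T0 library m13 was high for ENSECAG00000025083 (312.5 CPM).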

How the results depend on the processing

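Of the 23 calls of single members across the 3 comparisons, 10 held without any single library and 5 held under every alternative run. The count in T1 against T0 was 3, and it was 18 with total count scaling, 5 with DESeq2, 1 with only the 2 time points compared, 0 after thinning and 0 to 4 when each library was left out. The count of 14 in T2 against T1 was 9 with total count scaling, 9 without the filter on low counts and 10 to 15 when each library was left out. The count of 6 in T2 against T0 was 10 without libraries m3 and m12 and 4 to 8 when each library was left out. No called gene changed direction under an alternative. The uncalled hairpin ENSECAG00000027109 did so, with a log2 fold change of -0.0481 with sex as a covariate in T1 against T0. Leaving out single libraries gave it -0.359 (without m1) to 1.32 (without m13) in T1 against T0, and -0.858 (without m14) to 0.42 (without m1) in T2 against T1. The cause of these changes was not tested. No paired analysis was possible because the labels give no horse identity. The snoRNAs had 7 to 38 counts per library, and the part of depth in the missing calls was not tested.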
